A study of Mus musculus with 12 samples.

Results

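The proteasome genes examined here are the 47 genes whose symbol begins with Psm, a letter from a to g and a number, out of 16503 genes listed for muscle stem cells (MuSCs) and myoblasts and 16169 listed for the genotype comparison. Psmb8, Psmb9 and Psmb10, which encode the catalytic subunits of the immunoproteasome, and symbols of pseudogenes were not members under this rule. Of the 47 genes, 45 encode proteasome proteins: 15 belong to the 20S core, 17 to the 19S cap, 5 are activators, 1 is an inhibitor and 7 are assembly chaperones. The remaining 2, Psmc3ip and Psme3ip1, share the start of the symbol only and encode a meiotic recombination factor and a protein that binds Psme3. All 47 passed the filter on low values in both comparisons, although Psmb11, the thymus form of a core subunit, reached at most 2.47 reads per 1000000 (RPM) in the 12 libraries.

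The proteasome is the protease that degrades proteins marked with ubiquitin. Its 20S core is a barrel of stacked rings in which outer alpha rings gate the entry and inner beta rings carry the caspase-like, trypsin-like and chymotrypsin-like active sites. The 19S cap recognises the ubiquitin chain, removes it at the lid and unfolds the substrate with a ring of ATPases in the base, whereas activators such as PA28 and PA200 bind the same core without handling ubiquitin. Loss of a cap ATPase is known to impair MuSCs, and the study asked how an E3 ubiquitin ligase, Nedd4L, acts in these cells.

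RNA was sequenced from 1000 cells per library, with 3 libraries in each of 4 groups. MuSCs were sorted from hindlimb muscle as ITGA7+/Hoechst+/CD31-/CD45-/CD11b-/SCA1- cells. In the culture comparison, WT MuSCs numbered 4 to 6 were lysed directly, and WT myoblasts with the same numbers were grown for 3 days in Ham's F10 with serum and bFGF. For the genotype comparison, male mice of 5 to 6 weeks were used, 3 of them WT and 3 Nedd4L-cKO, and the MuSCs were again not cultured. The line is Nedd4L fl/fl Pax7 cre/+ on a C57BL/6 background: Cre comes from the Pax7 locus, deletes exon 15 in cells expressing Pax7, and leaves the gene transcribed. The paper gives as a limitation that the deletion also reaches differentiated myofibers, whose altered secretome could possibly affect their MuSCs. The controls carry the label WT, with no further statement of their alleles.

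Levels are in RPM, that is, the authors' normalized counts divided by the mean of the 6 library totals of a table and multiplied by 1000000. Those totals were 33189800 to 37595700 normalized counts in the culture table and 40323500 to 50687100 in the genotype table, where cKO library 1 had the highest total. Mitochondrial genes took 0.855% to 1.71% of the culture libraries, 2.83% to 4.04% of the WT and 5.60% to 6.21% of the cKO libraries. Nedd4l, summed over all its exons and therefore no direct readout of the deleted exon, had a log2 fold change of -1.37 (SE 0.28) in cKO against WT MuSCs (limma, adjusted p = 0.0467). The 8 MuSC markers summed to 4385 to 6330 RPM in fresh MuSCs and 782 to 852 RPM in myoblasts, and 6 markers of cycling or differentiating myoblasts to 1197 to 1490 and 5378 to 5972 RPM. All 5 fibro-adipogenic markers were present in fresh MuSCs, at 458 to 620 RPM in sum, and reached 3.07 to 4.51 RPM in myoblasts, whereas the 8 myofiber markers summed to 377 to 573 and 9991 to 22215 RPM. Endothelial markers summed to at most 16.3 RPM and immune markers to at most 4.31 RPM in the culture libraries, and Emcn, Kdr, Tie1, Adgre1, C1qa and Cd52 were at 0 or not listed. In bulk libraries a smaller number of cells of a type and less RNA per cell cannot be told apart, and the part of these markers in the results that follow was not tested.

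The regions upstream of 4 genes are shown because the results turn on them: Psmb5 and Psmb6 encode catalytic subunits of the same ring and changed in opposite directions in culture, and Psme1 and Psme2 encode the partners of 1 activator and fell together. Each sequence is the 250 bases before a RefSeq transcription start on GRCm38.p6, on the strand of the gene. Capitals mark the letters TGACNNNGC, the core of the antioxidant response element, searched on both strands.
Psmb5 (chr14:54617996-54618245, minus strand): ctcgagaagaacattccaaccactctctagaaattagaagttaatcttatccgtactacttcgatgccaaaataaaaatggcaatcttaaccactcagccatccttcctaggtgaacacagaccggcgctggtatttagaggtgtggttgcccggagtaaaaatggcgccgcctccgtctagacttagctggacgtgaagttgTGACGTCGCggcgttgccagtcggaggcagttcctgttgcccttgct
Psmb6 (chr11:70525107-70525356, plus strand): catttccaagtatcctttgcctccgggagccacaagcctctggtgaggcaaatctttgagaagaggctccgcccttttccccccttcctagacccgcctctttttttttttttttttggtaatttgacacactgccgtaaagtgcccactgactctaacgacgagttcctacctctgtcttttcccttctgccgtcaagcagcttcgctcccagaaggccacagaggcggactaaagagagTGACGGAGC
Psme1 (chr14:55578244-55578493, plus strand): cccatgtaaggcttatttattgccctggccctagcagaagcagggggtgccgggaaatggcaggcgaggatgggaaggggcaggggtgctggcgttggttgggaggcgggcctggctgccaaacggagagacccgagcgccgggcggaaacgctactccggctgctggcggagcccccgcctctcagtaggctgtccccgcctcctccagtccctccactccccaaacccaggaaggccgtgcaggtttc
Psme2 (chr14:55591102-55591351, minus strand): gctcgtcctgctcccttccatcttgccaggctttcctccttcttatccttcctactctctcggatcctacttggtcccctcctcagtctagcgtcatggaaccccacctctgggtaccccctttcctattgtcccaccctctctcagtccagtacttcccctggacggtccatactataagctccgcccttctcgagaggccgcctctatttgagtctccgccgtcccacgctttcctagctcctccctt

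The marked letters begin 47 bases before the start in Psmb5 and 9 bases before it in Psmb6. They are absent from these windows of Psme1 and Psme2. Psme2 has another RefSeq start, whose window (chr14:55591022-55591271) is not printed and also lacks them. Windows were available for 40 of the 47 genes, and those of Psmb5, Psmb6, Psmc6, Psmd12 and Psmd9 held the letters, which is 12.5% of them beside 11.5% of all 27025 genes with a window. The core of the interferon-stimulated response element, searched the same way, was in 3 windows (Psmb3, Psmd4 and Psmd9), which is 7.50% beside 3.46% of all genes. Psmb1, Psmb2, Psmb7, Psmc3, Psmd3, Psmd7 and Psmg2 had no entry.

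In myoblasts compared with MuSCs, 17 of the 45 proteasome genes were called by limma at an adjusted p of at most 0.05, 8 of them higher and 9 lower. Of all 15345 genes tested, 42.8% were called, 22.2% higher and 20.6% lower, so the share of proteasome genes called, in either direction, was close to that of all genes. By subassembly, the 20S core had 2 genes higher and 4 lower with a median log2 fold change of -0.25, the 19S cap had 5 higher and 0 lower with a median of 0.25, and the median of all tested genes was 0.04. At an unadjusted p under 0.05, 0 genes of the cap were lower as well, beside 24.8% of all tested genes. When each library was scaled to its own total, which was tried as an alternative, the median of all genes shifted by 0.10, 10 of 16 called members were higher, and the medians relative to all genes were -0.25 for the core and 0.25 for the cap, against -0.29 and 0.21 on the main scale.

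**Figure D1:**
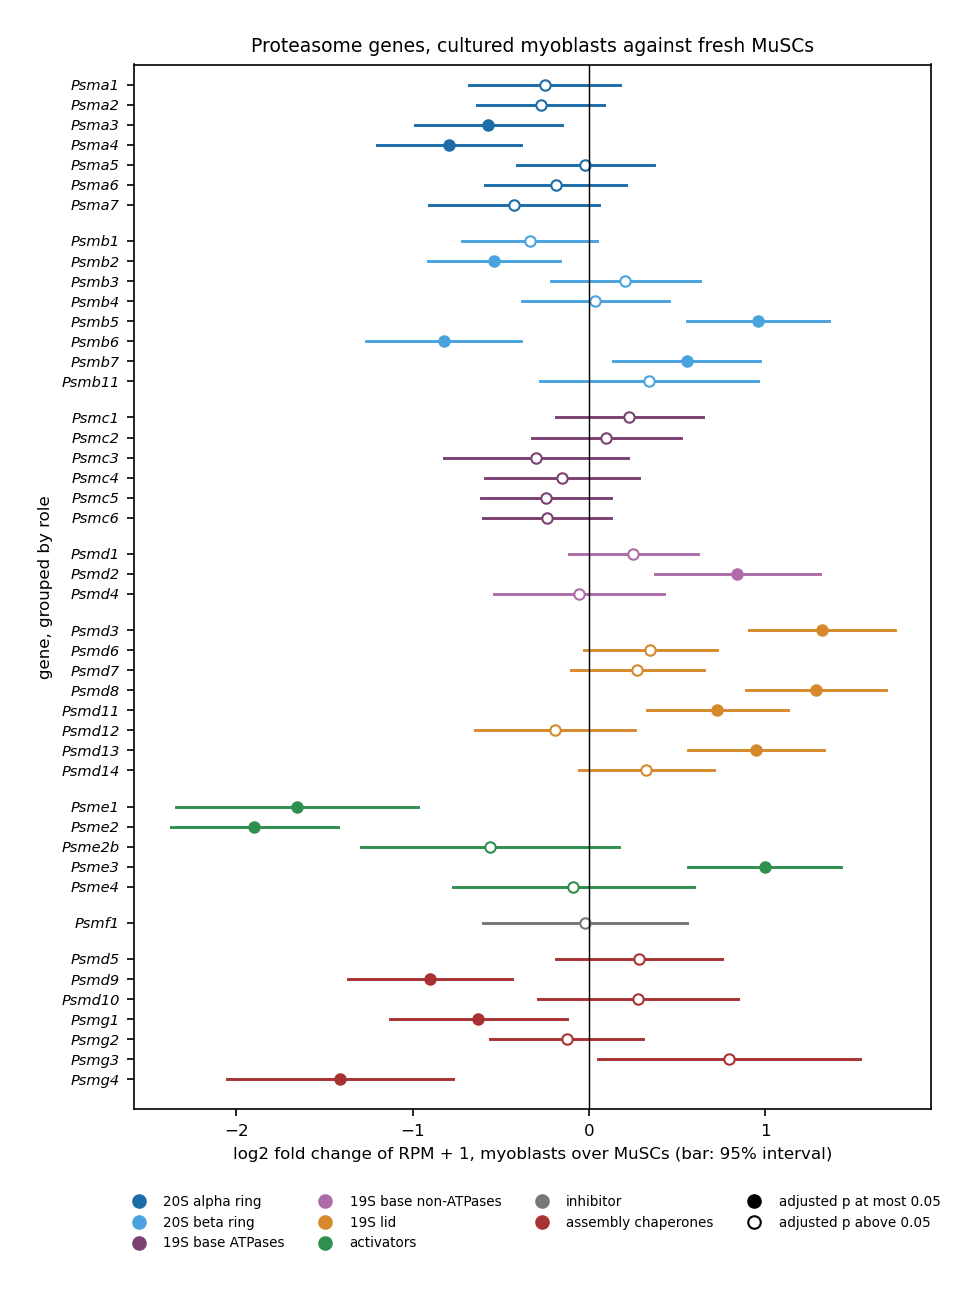
Log2 fold change of RPM + 1 (horizontal axis) for each of the 45 proteasome genes in 3 myoblast libraries over 3 MuSC libraries, grouped and coloured by role. Points are limma estimates and bars their 95% intervals; filled points had an adjusted p of at most 0.05. The filled points of the 19S cap lie to the right of 0, and Psme1 and Psme2 lie farthest to the left.

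The 3 catalytic subunits of the constitutive core did not move together. Psmb5 (ENSMUSG00000022193, chr14:54850776-54855481 on GRCm39), which carries the chymotrypsin-like site, measured 123, 151 and 138 RPM in MuSCs and 244, 258 and 301 RPM in myoblasts. Every myoblast library was above every MuSC library, and the log2 fold change was 0.96 (SE 0.18, 95% interval 0.56 to 1.36, adjusted p = 0.00271). Psmb6 (chr11:70416183-70418684), which carries the caspase-like site, measured 1038, 1071 and 987 RPM in MuSCs and 740.0, 480.2 and 556 RPM in myoblasts. Its groups did not overlap either, in the opposite order, with a log2 fold change of -0.82 (SE 0.19, adjusted p = 0.00858). Psmb7, which carries the trypsin-like site and shares exon positions with Nek6 on the other strand, measured 62.4, 71.9 and 64.1 RPM in MuSCs and 99.2, 88.6 and 105 RPM in myoblasts. It was called higher at 0.55 (SE 0.18, adjusted p = 0.0381), but not when fresh MuSC 4, 5 or 6 or myoblast 5 or 6 was left out (adjusted p of 0.0660 to 0.123).

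The ratio of Psmb5 to Psmb6 within a library was 0.118, 0.141 and 0.140 in MuSCs and 0.330, 0.538 and 0.542 in myoblasts, so the lowest myoblast library was above the highest MuSC library. Psmb7 to Psmb6 went from 0.0641 ± 0.0036 to 0.169 ± 0.031 (SD, n = 3). Ratios within a library do not depend on its total. They are not corrected for length, so they compare libraries and not the amounts of the genes in 1 library, and they were not tested. The immunoproteasome counterpart of Psmb5, Psmb8, measured 46.4, 63.7 and 82.3 RPM in MuSCs and 2.45, 1.08 and 0.411 RPM in myoblasts. It fell by 4.88 on the log2 scale (SE 0.40, adjusted p = 3.15e-05), and the ratio of Psmb5 to Psmb8 in RPM was 1.67 to 2.65 in MuSC libraries and 99.8 or more in myoblast libraries. Psmb9, the counterpart of Psmb6, went from 23.1 ± 8.9 to 0.656 ± 0.142 RPM (adjusted p = 9.29e-05), and Psmb10, the counterpart of Psmb7, from 31.4 ± 10.4 to 15.8 ± 2.0 RPM (adjusted p = 0.0427).

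**Figure D2:**
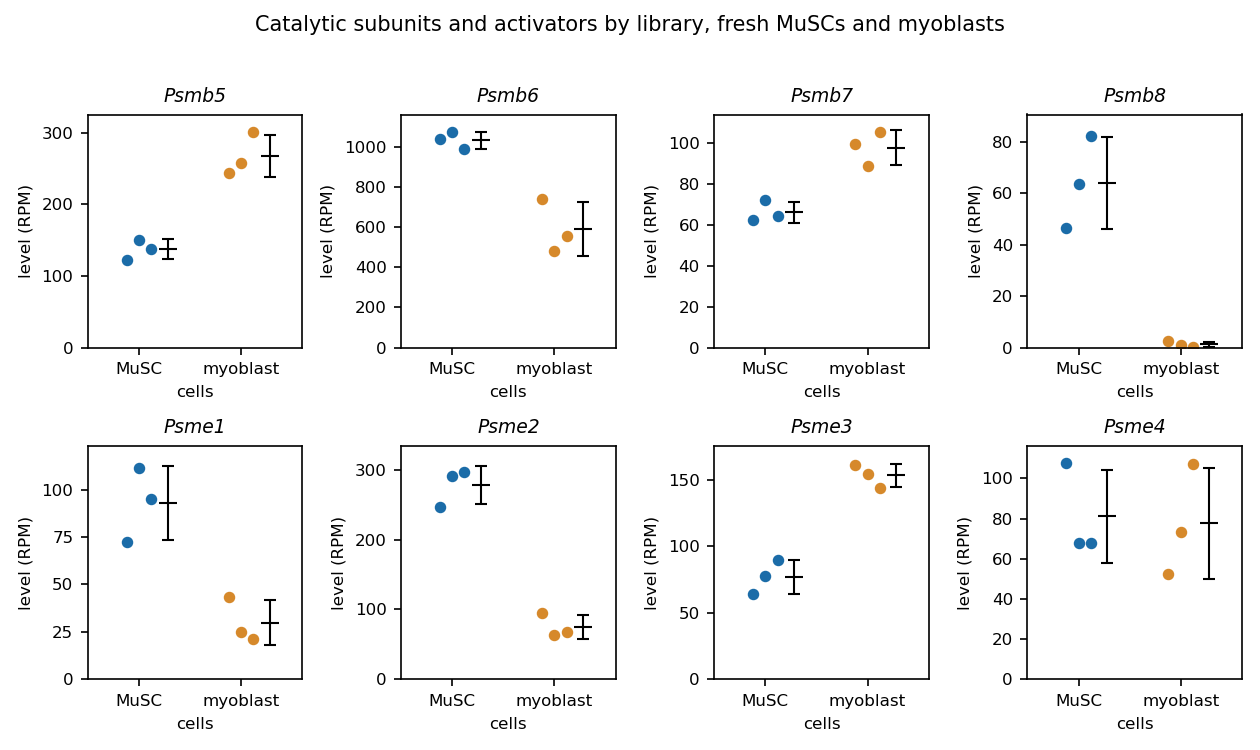
Level in RPM (vertical axis, from 0) of the catalytic subunits Psmb5, Psmb6, Psmb7 and Psmb8 and of the activators Psme1 to Psme4 in 3 MuSC and 3 myoblast libraries. Points are libraries in the order of their numbers 4, 5 and 6, and the bar beside them is the mean with its SD; the groups overlap in Psme4 only.

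The 7 genes of the alpha ring, which forms the gate of the core, had log2 fold changes from -0.79 to -0.02 in myoblasts. Their median was -0.27, and 2 were called lower, beside 20.6% of all tested genes. All 7 estimates were negative on the main scale, while that of Psma5 was positive with each library scaled to its own total and without fresh MuSC 5, myoblast 5 or myoblast 6. Psma4 measured 356, 394 and 396 RPM in MuSCs and 264, 202 and 199.8 RPM in myoblasts, with no overlap between the groups and a log2 fold change of -0.79 (SE 0.18, adjusted p = 0.00734). Psma3 measured 729, 774 and 904 RPM in MuSCs and 628, 459 and 541 RPM in myoblasts. Its groups did not overlap, and its log2 fold change was -0.57 (SE 0.18, adjusted p = 0.0335). The adjusted p of Psma3 was 0.0819 with each library scaled to its own total, and 0.0797 to 0.131 without fresh MuSC 5 or 6 or myoblast 5 or 6. Psma7, which had the highest level per kb of transcript after Psmb6 in MuSCs, measured 579, 637 and 552 against 586, 355 and 404 RPM, where myoblast 4 lay within the range of MuSCs and the other two below it (adjusted p = 0.138, and 0.00985 without myoblast 4). In sum the ring took 3328 ± 191 RPM in MuSCs and 2589 ± 391 RPM in myoblasts (SD, n = 3).

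Among the structural genes of the beta ring, Psmb2 was called lower, from 590 ± 51 to 406 ± 36 RPM (log2 fold change -0.54, SE 0.17, adjusted p = 0.0276). That call was not made with each library scaled to its own total (adjusted p = 0.0720) or without fresh MuSC 5 or 6 or myoblast 5 or 6 (0.0812 to 0.101). Psmb1, Psmb3 and Psmb4 had log2 fold changes of -0.34, 0.21 and 0.04 and were not called. Psmb11, which replaces Psmb5 in the thymus, measured 0.626 to 1.13 RPM in MuSCs and 0.702 to 1.86 RPM in myoblasts, and these ranges overlap. The core as a whole summed to 5761, 6293 and 6303 RPM in MuSCs and 5601, 4277 and 4767 RPM in myoblasts, with every myoblast library below every MuSC library on this scale.

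**Figure D3:**
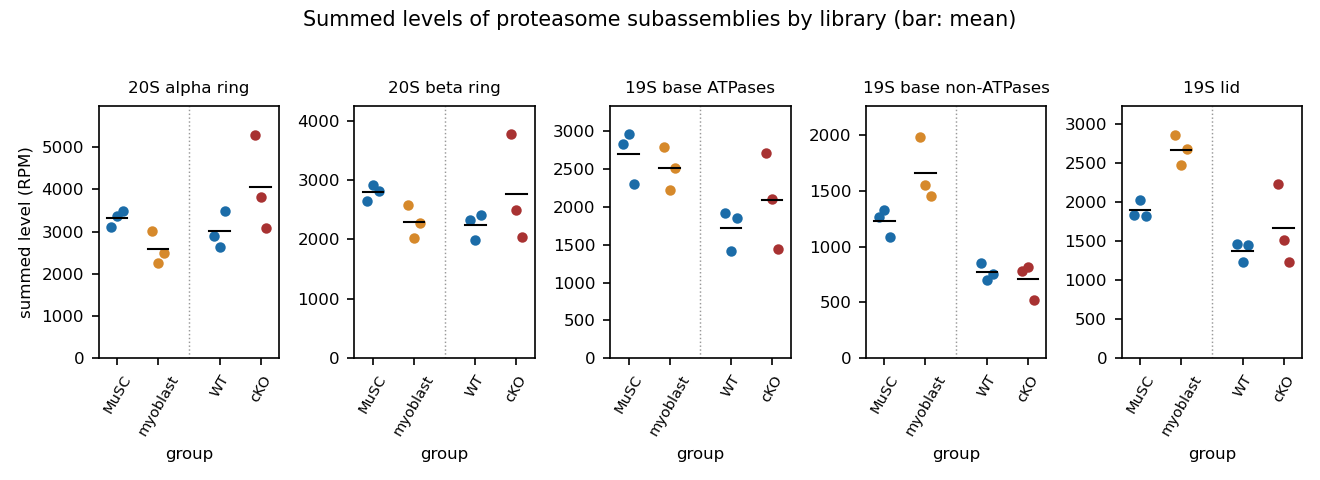
Summed RPM (vertical axis, from 0 in each panel) of the 5 subassemblies of the 26S proteasome by library. Points are libraries, bars are group means, and the dotted line separates the culture table from the genotype table, which were normalized separately. The 19S lid lies higher in the 3 myoblast libraries, at 2468 to 2860 RPM, than in the 3 MuSC libraries, at 1826 to 2023 RPM, and the highest cKO point in 4 of the 5 panels is library 1.

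In the 19S cap, the genes called higher were 1 of the base and 4 of the 8 of the lid, beside 22.2% of all tested genes. Psmd3, a structural lid subunit (ENSMUSG00000017221, chr11:98573362-98586812 on GRCm39), measured 67.5, 73.6 and 71.6 RPM in MuSCs and 205, 176 and 158 RPM in myoblasts. Its levels in myoblasts were 2.54 times those in MuSCs, with a log2 fold change of 1.32 (SE 0.18, 95% interval 0.91 to 1.74, adjusted p = 0.000547). Psmd8, another lid subunit, measured 177, 218 and 163 RPM in MuSCs and 454, 437 and 468 RPM in myoblasts (log2 fold change 1.29, SE 0.18, adjusted p = 0.000508). The 3 myoblast libraries of both genes were above all MuSC libraries and spread less than the difference between the groups.

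Psmd13 went from 104, 104 and 109 RPM to 224, 187 and 207 RPM (log2 fold change 0.95, SE 0.17, adjusted p = 0.00226), and Psmd11, whose product helps to hold the lid to the core, from 215, 200.1 and 166 RPM to 326, 295 and 339 RPM (0.73, SE 0.18, adjusted p = 0.00995). The groups did not overlap in either gene. Exons of Psmd13 overlap Cox8b and Sirt3, and those of Psmd3 overlap 2 genes, on the other strand, and the libraries do not mark the strand. Psmd6, Psmd7 and Psmd14, the last being the deubiquitinase of the lid, had log2 fold changes of 0.35, 0.27 and 0.33 and were not called. In 7 of the 8 lid genes every myoblast library was above every MuSC library, beside 28.4% of all tested genes, and Psmd12 was the exception with a log2 fold change of -0.19. In 0 of these 8 were they all below, beside 26.8% of all tested genes. The cap subunit Sem1, outside the symbol rule, is given with the surrounding genes.

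In the base of the cap only Psmd2 was called. Of the 6 ATPases, which unfold substrates, 0 were called by limma, beside 42.8% of all tested genes, and 0 had an unadjusted p under 0.05, beside 51.5%. Psmc3 measured 777, 708 and 449 RPM in MuSCs and 539.8, 445 and 548 RPM in myoblasts, with overlapping groups, the largest absolute log2 fold change of the 6 (-0.30, SE 0.23) and a 95% interval from -0.82 to 0.22. Psmc5 followed, with 469, 494 and 430.0 RPM in MuSCs and 421, 355 and 403 RPM in myoblasts, which do not overlap (-0.24, SE 0.16, adjusted p = 0.259). Among the other base subunits, Psmd2, a large scaffold that binds ubiquitin receptors and shuttles, measured 473, 506 and 375 RPM in MuSCs and 1005, 762 and 675 RPM in myoblasts. Its groups did not overlap, with a log2 fold change of 0.84 (SE 0.21, adjusted p = 0.0107). Psmd1, the other large scaffold, measured 412, 457 and 415 RPM in MuSCs and 554, 515 and 463 RPM in myoblasts, also without overlap, and was not called (0.25, SE 0.16, adjusted p = 0.238). The ubiquitin receptor Psmd4 was at -0.06 (SE 0.21, adjusted p = 0.856).

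The sum of the lid divided by that of the core within a library was 0.318, 0.321 and 0.290 in MuSCs and 0.511, 0.577 and 0.561 in myoblasts, with no overlap. The same ratio for the ATPases was 0.442 ± 0.067 and 0.515 ± 0.015 (SD, n = 3), where the highest MuSC library, at 0.491, lay just under the lowest myoblast library, at 0.498. The ratio of alpha ring to beta ring was 1.19 ± 0.04 in MuSCs and 1.13 ± 0.04 in myoblasts, and its groups overlap.

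**Figure D4:**
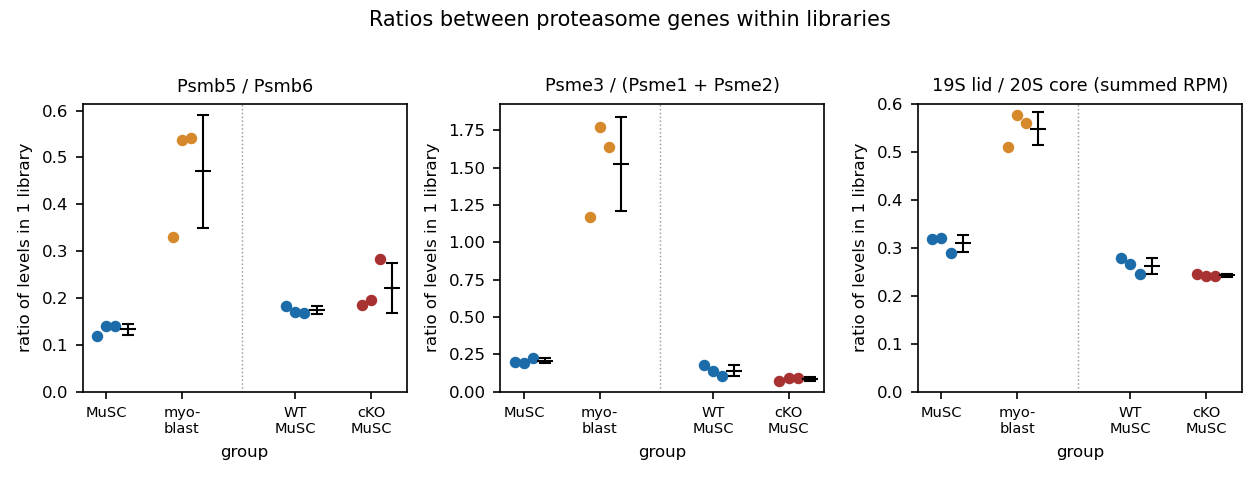
Ratio of levels within a library (vertical axis, from 0) for Psmb5 to Psmb6, for Psme3 to the sum of Psme1 and Psme2, and for the summed lid to the summed core, in the 4 groups. Points are libraries, the bar beside them is the mean with its SD, and the dotted line separates the tables. In all 3 panels the myoblast libraries lie above the MuSC libraries. Psmb5 to Psmb6 was 0.168 to 0.183 in WT and 0.185 to 0.284 in cKO libraries, a narrow separation. Psme3 to Psme1 plus Psme2 was 0.103 to 0.176 in WT and 0.070 to 0.093 in cKO libraries, also without overlap. The lid to core ratio, at 0.241 to 0.279 in both genotypes together, overlaps between them. These differences were not tested.

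The largest absolute changes of the 45 genes in myoblasts, those of Psme2 and Psme1, were among the activators. Psme1 and Psme2 encode PA28 alpha and beta, the interferon-inducible ring that opens the core and is linked to antigen processing, and they neighbour each other at chr14:55815190-55822034 and chr14:55824895-55829173 on GRCm39. Psme1 measured 72.2, 111 and 95.1 RPM in MuSCs and 43.4, 24.7 and 21.1 RPM in myoblasts. Every myoblast library was below every MuSC library, and Psme1 fell by 1.66 on the log2 scale (SE 0.30, 95% interval -2.34 to -0.97, adjusted p = 0.00252). Psme2 measured 247, 291 and 298 RPM in MuSCs and 94.7, 62.9 and 67.2 RPM in myoblasts, again without overlap, and fell by 1.90 (SE 0.21, adjusted p = 0.000167). Exons of Psme2 overlap Rnf31 and those of Psme1 overlap Emc9, each on the other strand. In both genes myoblast 4 was the highest of the myoblast libraries. The ratio of Psme2 to Psme1 was 3.05 ± 0.41 in MuSCs and 2.64 ± 0.51 in myoblasts (SD, n = 3), with overlapping groups. Beside this fall stand those of Psmb8 and Psmb9 and that of the fibro-adipogenic markers given above.

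Psme3 encodes PA28 gamma, the nuclear relative of PA28, and went the other way. It measured 64.3, 77.6 and 89.6 RPM in MuSCs and 162, 155 and 144 RPM in myoblasts, which do not overlap (log2 fold change 1.00, SE 0.19, 95% interval 0.56 to 1.43, adjusted p = 0.00332). The ratio of Psme3 to Psme1 plus Psme2 was 0.202, 0.193 and 0.228 in MuSCs and 1.17, 1.77 and 1.63 in myoblasts, so it was below 1 in every MuSC library and above 1 in every myoblast library. These ratios of RPM are not corrected for length, and which amount was larger in myoblasts depended on the length used. Per kb of canonical transcript, Psme3 was at 35.1 RPM per kb in myoblasts beside 7.03 for Psme1 and 77.7 for Psme2, and per kb of coding sequence it was at 202 RPM per kb beside 39.8 and 105. Psme4, the single-chain activator PA200, measured 108, 67.9 and 67.7 RPM in MuSCs and 52.3, 73.4 and 107 RPM in myoblasts and was not called (log2 fold change -0.09, SE 0.30, 95% interval -0.77 to 0.60). Its sign was positive when libraries were scaled to their own totals. Psme2b, a copy of Psme2 whose reads cannot be cleanly separated from those of Psme2, stayed between 0.666 and 3.33 RPM and was not called (adjusted p = 0.190). Across the 5 activator genes the median was -0.56.

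Psmf1, the inhibitor PI31, measured 53.8, 60.2 and 61.2 RPM in MuSCs and 82.6, 46.6 and 48.9 RPM in myoblasts, where the myoblast libraries lie on both sides of the MuSC libraries (log2 fold change -0.02, SE 0.26). Among the chaperones that assemble the complex, 3 of 7 were called lower, beside 20.6% of all tested genes, and 0 higher, beside 22.2%. Psmg4, which helps to build the alpha ring, measured 36.6, 54.4 and 60.9 RPM in MuSCs and 22.4, 14.3 and 18.2 RPM in myoblasts, which do not overlap. It fell by 1.41 (SE 0.28, adjusted p = 0.00405). Psmd9, a chaperone of the base, measured 112, 113 and 91.2 RPM in MuSCs and 65, 56.1 and 47.5 RPM in myoblasts, again without overlap (log2 fold change -0.90, SE 0.21, adjusted p = 0.00749). Psmg1, which acts on the alpha ring with Psmg2, went from 84.1 ± 5.4 to 55.0 ± 13.5 RPM (log2 fold change -0.63, SE 0.22, adjusted p = 0.0473). The call on Psmg1 was not made with each library scaled to its own total (adjusted p = 0.0923) or without fresh MuSC 4, 5 or 6 or myoblast 5 or 6 (0.0834 to 0.153). Psmd5, Psmd10 and Psmg2 were not called. Of the other matches of the symbol, Psmc3ip measured 8.83, 24 and 25.8 RPM in MuSCs and 39.7, 22.1 and 18.5 RPM in myoblasts (0.49, SE 0.44, adjusted p = 0.400). Psme3ip1 measured 99.2, 138 and 99.2 RPM in MuSCs and 84.7, 81.6 and 79.7 RPM in myoblasts (-0.43, SE 0.20, adjusted p = 0.113). Neither was called, and the groups overlap in Psmc3ip and not in Psme3ip1.

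Compared per kilobase, the core and cap genes were far from equal in RNA although the complex holds them in fixed numbers. Over 31 subunits, without Psmb11, the level per kb of the canonical transcript of GENCODE M39 ran from 32.7 RPM per kb for Psmd3 to 996 for Psmb6 in MuSCs, a 30.4-fold range. In myoblasts it ran from 62.8 for Psmb1 to 571 for Psmb6, which is 9.10-fold. Long untranslated ends in that annotation lower the level of Psmb1, Psmb2, Psma2, Psma3, Psme1 and Psme3, among others. The same was therefore computed per kb of coding sequence: the range was 32.4-fold in MuSCs and 7.33-fold in myoblasts, from Psmd3 to Psmb6 in both. Thus the range was narrower in myoblasts on either scale, with no test made. The order of the 31 subunits was alike in the WT MuSCs of the separate tables (Spearman's rho 0.935 per kb of transcript and 0.968 per kb of coding sequence) and less so in MuSCs and myoblasts (0.836 and 0.864); these are descriptions across genes, which share gene length in both members of a pair.

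The genes around the proteasome were taken from a list of 34, of which 33 were listed and tested. In myoblasts 6 were called higher, beside 22.2% of all tested genes, and 11 lower, beside 20.6%. Another 16 were not called, and the median log2 fold change of the 33 was -0.08. Those higher included Nfe2l1, the transcription factor that induces proteasome genes when the complex is short, which measured 30.4, 31.5 and 23.1 RPM in MuSCs and 81.0, 106 and 98.5 RPM in myoblasts, a mean of 28.3 ± 4.5 against 95.3 ± 13.0 RPM (SD, n = 3; log2 fold change 1.72, SE 0.22, adjusted p = 0.000383). Ddi2, the protease that activates Nfe2l1, measured 39, 23.7 and 18.7 RPM in MuSCs and 60.4, 87.4 and 49.5 RPM in myoblasts, without overlap (1.27, SE 0.32, adjusted p = 0.0124). Ngly1, which removes sugars from Nfe2l1, was called lower, from 135 ± 14 to 73.2 ± 13.6 RPM (-0.89, SE 0.21, adjusted p = 0.00819), so the genes around this factor did not move one way. Nfe2l2, the factor most tied to the antioxidant response element, was at -0.04 (SE 0.18, adjusted p = 0.884).

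Ubb, which encodes a chain of ubiquitin units, measured 13632, 10658 and 9706 RPM in MuSCs and 4038, 2912 and 3104 RPM in myoblasts, which do not overlap, and it fell by 1.76 on the log2 scale (SE 0.20, adjusted p = 0.000177). Rps27a, which encodes ubiquitin fused to a ribosomal protein, fell by 0.63 (SE 0.17, adjusted p = 0.0148). Ubqln4, a shuttle that brings ubiquitinated proteins to the cap, went up from 25.5 ± 5.5 to 85.8 ± 11.0 RPM (1.73, SE 0.24, adjusted p = 0.000542), and the shuttle Rad23b was called higher as well (0.76, adjusted p = 0.0374). Of the cap subunits without a Psm symbol, Adrm1 and Sem1, neither was called (-0.21 and -0.65, adjusted p = 0.454 and 0.0609). Sem1 measured 126, 191 and 240 RPM in MuSCs and 114, 106 and 123 RPM in myoblasts, which do not overlap (limma, unadjusted p = 0.0276). Uchl5, the deubiquitinase that docks on Adrm1, was called lower at -0.74 (SE 0.23, adjusted p = 0.0313). Fbxo7, which binds Psmf1, was called lower at -1.48 (SE 0.38, adjusted p = 0.0125).

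In Nedd4L-cKO MuSCs, 0 of the 45 proteasome genes were called against WT by limma, beside 0.784% of all 15304 genes tested. At an unadjusted p under 0.05, 2 of the 45 were different, both higher, beside 14.6% of all genes. In 3 of the 45, Psma3, Psmb7 and Psme2b, every cKO library was above every WT library, beside 9.75% of all genes, and in 0 every cKO library was below, beside 9.59%. The estimates were positive for 35 of 45 genes (31 with each library scaled to its own total), with a median of 0.34 for the core and 0.19 for the cap against 0.00 for all genes. This lean was smaller without cKO library 1, which had the highest summed core and the highest summed cap of the 6 libraries. Without it, 22 of 45 estimates were positive. The core then had 10 positive and 5 negative estimates with a median of 0.14. The cap had 6 positive and 11 negative with a median of -0.05, and the median of all genes was -0.01.

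The core summed to 5231, 4621 and 5897 RPM in WT and 9071, 6295 and 5124 RPM in cKO MuSCs, so that cKO library 1 was the highest library and cKO library 3 lay inside the range of WT. The cap summed to 4227, 3337 and 4048 RPM in WT and 5727, 4430 and 3205 RPM in cKO MuSCs, where cKO library 3 was the lowest of all. Besides its total, cKO library 1 had 2570 RPM of the 5 fibro-adipogenic markers, against 687 to 1983 RPM in the other 5 libraries, and the 4 smooth muscle and pericyte markers ranged from 319 to 1169 RPM in WT and 475 to 2151 RPM in cKO libraries. The 8 MuSC markers summed to 2709 RPM in cKO library 1, the lowest of the 6, against 3420 to 7228 RPM in the others. The 8 myofiber markers were at 270 to 517 RPM in WT and 588 to 751 RPM in cKO libraries. The part of these in the sums was not tested.

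**Figure D5:**
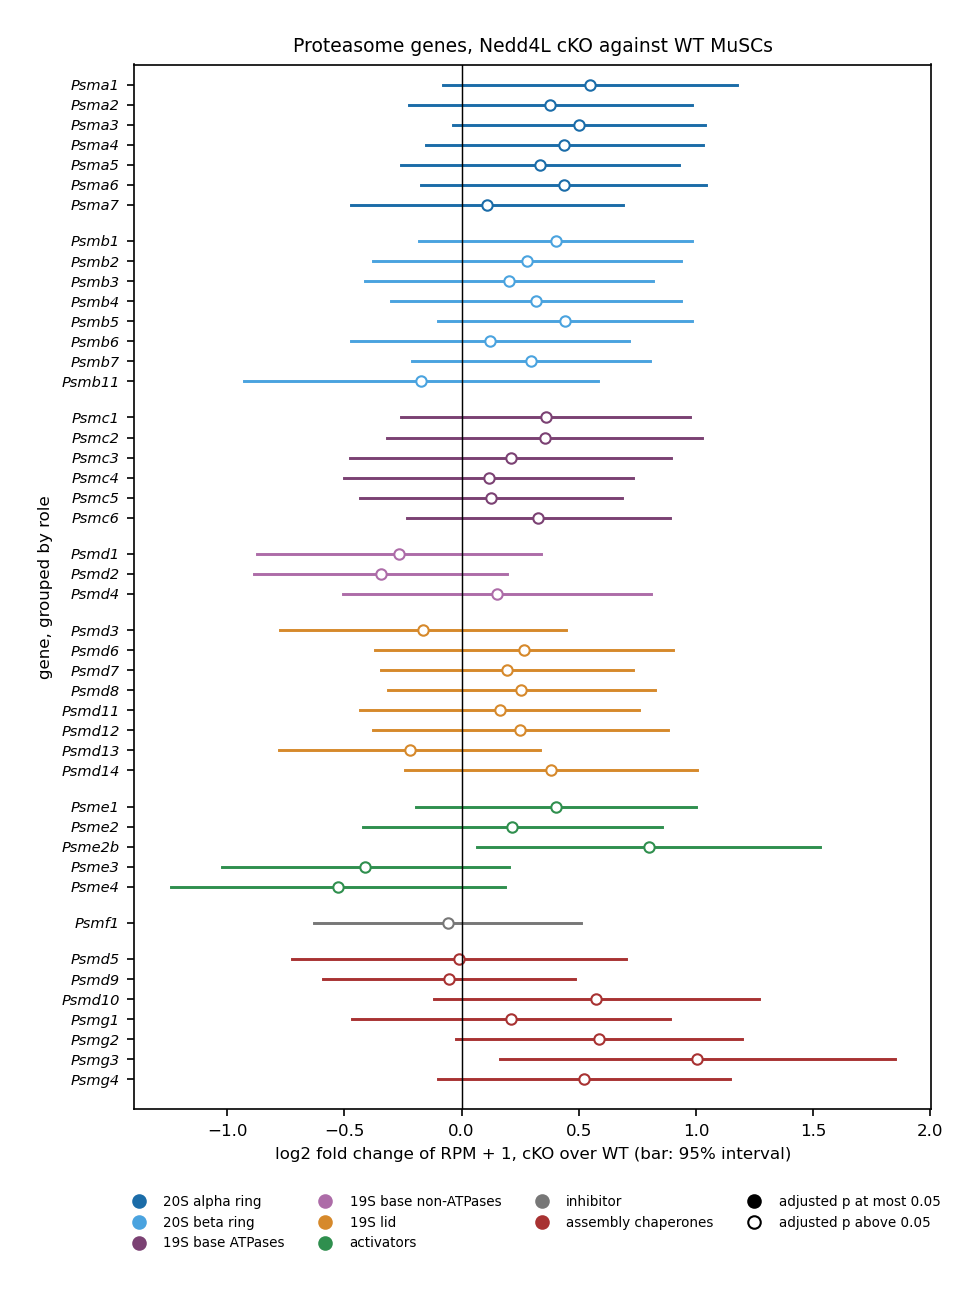
Log2 fold change of RPM + 1 (horizontal axis) for each of the 45 proteasome genes in 3 Nedd4L-cKO over 3 WT MuSC libraries, grouped and coloured by role. Points are limma estimates and bars their 95% intervals; all points are open, since the lowest adjusted p was 0.269, and 2 intervals, of Psmg3 and Psme2b, leave out 0.

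Psmg3, an assembly chaperone of the alpha ring, measured 8.57, 6.97 and 17.3 RPM in WT and 30, 14.4 and 22.6 RPM in cKO MuSCs. The groups overlap through cKO library 2, and the log2 fold change was 1.01 (SE 0.39, 95% interval 0.16 to 1.85, adjusted p = 0.269). Psme2b measured 1.82, 1.33 and 1.48 RPM in WT and 4.27, 3.04 and 3.03 RPM in cKO MuSCs (0.80, SE 0.34, 95% interval 0.07 to 1.53, adjusted p = 0.306), a difference of few RPM in a copy of Psme2. Psme2 itself measured 211, 186 and 226 against 368, 217 and 174 RPM, and its groups overlap on both sides (0.22, SE 0.29, adjusted p = 0.780). Its partner Psme1 measured 77.6, 59.6 and 95.3 RPM in WT and 126, 101 and 80.8 RPM in cKO MuSCs (0.40, SE 0.27, adjusted p = 0.535). Psme3 measured 50.6, 34.2 and 33.1 RPM in WT and 34.8, 28.7 and 23.8 RPM in cKO MuSCs (-0.41, SE 0.28, adjusted p = 0.539). In both genes 1 cKO library lay within the range of WT, and in Psme4, the activator PA200, 2 did. Psme4 measured 80.6, 89.4 and 69.6 RPM in WT and 31.6, 70 and 74 RPM in cKO MuSCs (-0.53, SE 0.33, adjusted p = 0.490).

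Of the catalytic subunits, Psmb5 measured 145, 109 and 125 RPM in WT and 205, 145 and 167 RPM in cKO MuSCs, with groups that touch at cKO library 2 (0.44, SE 0.25, 95% interval -0.10 to 0.98, adjusted p = 0.440). Psmb7 measured 72.9, 60 and 73.5 RPM in WT and 84.6, 85.3 and 83.4 RPM in cKO MuSCs. All 3 cKO libraries were above the WT libraries, and the difference was not called (0.30, SE 0.23, 95% interval -0.21 to 0.81). Psmb6 measured 792, 639 and 741 RPM in WT and 1107, 740.0 and 589 RPM in cKO MuSCs, with cKO libraries on both sides of the WT libraries. Its estimate was 0.12 (SE 0.27, 95% interval -0.47 to 0.71), and turned negative without cKO library 1 or with each library scaled to its own total. Psmb1, a structural beta subunit, measured 400.2, 359 and 444 RPM in WT and 742, 471 and 422 RPM in cKO MuSCs, which overlap (0.40, SE 0.27, adjusted p = 0.526).

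In the alpha ring, Psma1 had the largest estimate, at 0.55 (SE 0.29, adjusted p = 0.411), with values from 260.0, 251 and 372 RPM in WT to 588, 416 and 311 RPM in cKO MuSCs, which overlap. Psma3 measured 884, 779 and 1055 against 1576, 1209 and 1082 RPM, a narrow separation (0.50, SE 0.25, adjusted p = 0.379). Psma7 measured 420.4, 376 and 435 RPM in WT and 597, 446 and 325 RPM in cKO MuSCs, on both sides of the WT libraries (0.11, SE 0.27, adjusted p = 0.880), and its sign turned without cKO library 1 and with each library scaled to its own total.

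In the cap, estimates ran from -0.35 for Psmd2 to 0.38 for Psmd14, and the lowest adjusted p was 0.555. Psmd2 measured 258, 224 and 202 RPM in WT and 165, 221 and 155 RPM in cKO MuSCs (SE 0.25, adjusted p = 0.555). Psmd1 measured 361, 281 and 363 RPM in WT and 265, 387 and 206 RPM in cKO MuSCs (-0.27, SE 0.28, adjusted p = 0.701). The groups overlap in both scaffolds. Psmd14 measured 218, 209 and 257 RPM in WT and 430.3, 288 and 209.7 RPM in cKO MuSCs, where the cKO libraries reached from the level of WT to well above it (SE 0.29, adjusted p = 0.576). Psmd6, another lid subunit, measured 239.8, 215 and 235 RPM in WT and 432, 235 and 209 RPM in cKO MuSCs (0.27, SE 0.29, adjusted p = 0.716), and its sign turned without cKO library 1. The largest estimates of the ATPases were those of Psmc1 and Psmc2, and cKO library 1 was the highest and cKO library 3 within the WT range in both. Psmc1 measured 302, 224 and 274 RPM in WT and 468, 350.0 and 239 RPM in cKO MuSCs (0.36, SE 0.28, adjusted p = 0.596). Psmc2 measured 217, 189 and 286 RPM in WT and 415, 311 and 191 RPM in cKO MuSCs (0.36, SE 0.31, adjusted p = 0.636). Psmd3, which rose most in myoblasts, measured 49.6, 32.2 and 29.6 RPM in WT and 35, 28 and 33.9 RPM in cKO MuSCs, with overlapping groups (-0.16, SE 0.28, 95% interval -0.77 to 0.45).

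The lid to core ratio was 0.263 ± 0.017 in WT and 0.243 ± 0.003 in cKO MuSCs (SD, n = 3). Among the chaperones, Psmg2 measured 65.1, 74.2 and 106 RPM in WT and 158, 109 and 101 RPM in cKO MuSCs, where the lowest cKO library lay within the range of WT (0.59, SE 0.28, adjusted p = 0.360). The inhibitor Psmf1 measured 38.2, 52.9 and 51.8 RPM in WT and 54.1, 43.9 and 38.8 RPM in cKO MuSCs, which overlap (-0.06, SE 0.26), and its sign changed when single libraries were left out. Psmc3ip and Psme3ip1, which match the symbol only, overlap between the groups. Psmc3ip measured 12, 10.2 and 16.2 RPM in WT and 15.7, 16.6 and 10.5 RPM in cKO MuSCs (0.14, SE 0.32), and Psme3ip1 53.3, 71.6 and 74.5 RPM in WT and 88.6, 67.8 and 52.8 RPM in cKO MuSCs (0.05, SE 0.27). The widest 95% interval of the 45 genes reached from 0.16 to 1.85 on the log2 scale, in Psmg3, and the median SE was 0.28, against 0.19 in the culture comparison.

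Of the 33 surrounding genes, 0 were called between the genotypes by limma, beside 0.784% of all tested genes. At an unadjusted p under 0.05, 4 were higher and 5 lower, beside 14.6% of all tested genes in either direction. The lowest adjusted p, 0.0853, was that of the immunoproteasome subunit Psmb9, which measured 14.6, 15.2 and 14.8 RPM in WT and 35.9, 33.7 and 29.1 RPM in cKO MuSCs, without overlap (1.09, SE 0.26). The receptor Adrm1 was at -1.15 (SE 0.34, adjusted p = 0.149), Psmb8 at 0.80 (SE 0.26, adjusted p = 0.199) and Nfe2l1 at -0.14 (SE 0.31, adjusted p = 0.869).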

How the data were processed

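The deposited values are a signal, namely normalized counts: the authors quantified unstranded single-end reads with Kallisto 0.46.1 on GENCODE M28, used tximport to obtain gene values and applied DESeq2 normalization factors, separately in 2 tables. Read depth is therefore unknown, and no test crossed the tables. The other 18 columns of per-sample values and the authors' fold changes and p-values were not used. RPM were normalized counts over the mean of the 6 library totals, times 1000000. A gene was tested if 3 or more libraries had 10 or more normalized counts. The test was made on log2(RPM + 1), which understates the change of low genes, with limma 3.58.1 (R 4.3.3; trend and robust moderation; no covariate), and p-values were adjusted by Benjamini-Hochberg across the whole table. The fits were also run on simulated data with independent noise for each gene and known changes in genes of high level. That simulation does not cover shifts shared by many genes of a library. The genotype libraries came from 3 mice per group. Nothing used here states that the culture libraries came from separate animals, so p-values there measure only the spread between these samples, which may be technical. Values were given in full for the 2 members of each class with the largest absolute change, the catalytic subunits, the activators and the 2 members with the highest level per kb. Other genes were named after their values were seen. These members and lists were chosen with earlier results of these data known. Of the 47 genes, 25 overlap exons of another gene, and proteasome genes with pseudogenes may share reads with them. Gene positions are from GENCODE M39. Some genes of the surrounding list are counted but not reported here by name.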

Additional observations from a re-analysis of the deposited data

How the results depend on the processing

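Requiring, in addition, a log2 change of 1 or more in either direction and an average of 5 RPM or more left 5 members called in myoblasts instead of 17, by construction of the stricter rule. Across the other 14 alternatives 13 of the 17 kept their call in all, and Psma3, Psmb2, Psmb7 and Psmg1 did not. MuSC and myoblast libraries share numbers in their titles and other numbers in their descriptions. Both sets pair the same libraries, and the labels do not explain either. With the number as a replicate block 14 members were called, without Psmb2, Psmb7 and Psmg1, while the deviations of same-numbered libraries correlated at -0.031, -0.0050 and 0.018 and no library correlated best with its own number. Leaving out single libraries gave 13 to 19 calls and medians of -0.32 to -0.18 for the core and 0.19 to 0.33 for the cap. Between genotypes 0 members were called under each alternative, the replicate block included, whose numbers are shared by mice of different genotype (correlations of deviations 0.019, -0.023 and -0.18). Medians without 1 library were 0.14 to 0.54 for the core and -0.05 to 0.40 for the cap, while 22 to 213 of all genes were called over the alternatives.

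Genes that were not called changed sign in some alternatives, and the cause was not tested. In myoblasts, scaling to own totals and to totals without mitochondrial genes gave 0.047 and 0.045 for Psme4 and 0.11 and 0.11 for Psmf1, and leaving out single libraries gave -0.35 to 0.16 and -0.28 to 0.12. In cKO MuSCs, scaling to own totals gave -0.021 for Psma7, -0.0083 for Psmb6 and -0.076 for Psme3ip1, and totals without mitochondrial genes gave -0.040 for Psme3ip1. Leaving out single libraries gave -0.11 to 0.33 for Psma7, -0.13 to 0.33 for Psmb6, -0.053 to 0.47 for Psmd6, -0.090 to 0.45 for Psme2, -0.21 to 0.047 for Psmf1 and -0.13 to 0.23 for Psme3ip1. Read depth is not known from normalized counts, so no counting interval could be given.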
